A study of Eucalyptus grandis
Pisolithus microcarpus and Eucalyptus grandis with 23 samples.

Results

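Among the 36376 genes listed for Eucalyptus grandis roots, 13962 reached a mean of at least 10 CPM, a gene's reads scaled to the size of its library, and the 200 of these with the lowest share of uniquely matching reads are described here. For every gene the deposited tables give the reads that matched that gene alone, called unique gene reads, and all reads credited to it, called total gene reads. The difference between them is called shared reads below, because these reads also matched another place. The unique share is the sum of unique reads over the sum of total reads in all 23 libraries. The members were chosen by these summed reads, so the overall shares are a description and are not tested; the test of the share given last asks only whether it differed between groups. No sequence was at hand, and that the members are near-identical copies of other genes was not measured directly.

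Duplicated genes arise when a stretch of DNA is copied, often side by side on a chromosome, and copies that have diverged little yield short reads that cannot be traced to one of them. Tandem duplication is known to be frequent in the Eucalyptus grandis genome. In the naming scheme of its annotation the letters A to K in a gene ID stand for the chromosomes and L for unplaced scaffolds. In a genome assembly, a pair of near-identical gene models can be separate genes or alleles that were placed apart, and these cannot be told apart here. None of the 36376 IDs matched the reference table, so genes are given by ID without a name or a role.

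RNA was taken from root tissue of seedlings that were 1 month old when placed in Petri dishes on a medium with 0.1% glucose and that were then kept there for 1 month in growth chambers. Control roots carried no fungus and were kept at 400 ppm CO2 (6 libraries) or at 650 ppm CO2 (5 libraries). Mycorrhizal roots had received mycelium of the ectomycorrhizal fungus Pisolithus microcarpus, strain SI-9 or strain SI-12, each at 400 and at 650 ppm with 3 libraries per group. No group differed from another in plant genotype as far as the labels say.

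Depth ran from 4497662 to 30210474 total gene reads per library, with a median of 15751716. Libraries of a group fell into 10 near-identical sets, known from an earlier analysis of these data: control libraries 1 to 3 and 4 to 6 at 400 ppm, control libraries 1 to 2 and 3 to 5 at 650 ppm, SI-9 library 2 at 400 ppm apart from libraries 1 and 3, SI-9 library 3 at 650 ppm apart from libraries 1 and 2, and 1 set for each SI-12 group. Over the 200 members, the SD of the log2 CPM difference between 2 libraries was 0.202 to 0.438 inside a set, 0.677 to 1.36 between sets of the same group and 0.931 to 1.83 between groups. Over the expressed genes, SI-9 library 2 at 400 ppm lay 0.477 from library 1 and 0.456 from library 3 of its group. It lay 0.519 to 0.548 from the SI-12 libraries at 400 ppm, whereas SI-9 libraries 1 and 3 lay 0.855 to 0.885 from those. The cause was not tested. The adjusted p-values below treat every library as a replicate and measure the spread between libraries, which inside a set may be technical. Counts of called members are therefore also given with each set as 1 replicate. SI-9 libraries carry deposited numbers 1 to 12 and SI-12 libraries 13 to 24, so the strains and that numbering cannot be told apart, while controls fall in both ranges.

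The unique share of the members ran from 0% to 45.9% with a median of 35.2%, against a median of 99.99% in the other expressed genes. Of the members, 6 lay under 1%, 3 between 1% and 5%, 6 between 5% and 10%, 10 between 10% and 20%, 37 between 20% and 30%, 67 between 30% and 40% and 71 above 40%. The limit itself marks no gap. Just inside it lay Eucgr.L00411.1 at 45.75%, Eucgr.F03390.1 at 45.83% and Eucgr.F02539.1 at 45.92%, and just outside it Eucgr.C02540.1 at 45.92%, Eucgr.E02673.1 at 46.04% and Eucgr.L00817.1 at 46.08%. In all, 1870 expressed genes had under 90% unique reads, 245 had under 50%, and 4863 had no shared read. The members took 1.09% to 1.37% of a library's total gene reads, but 18.8% to 27.1% of its shared reads and 0.276% to 0.393% of its unique reads.

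**Figure D1:**
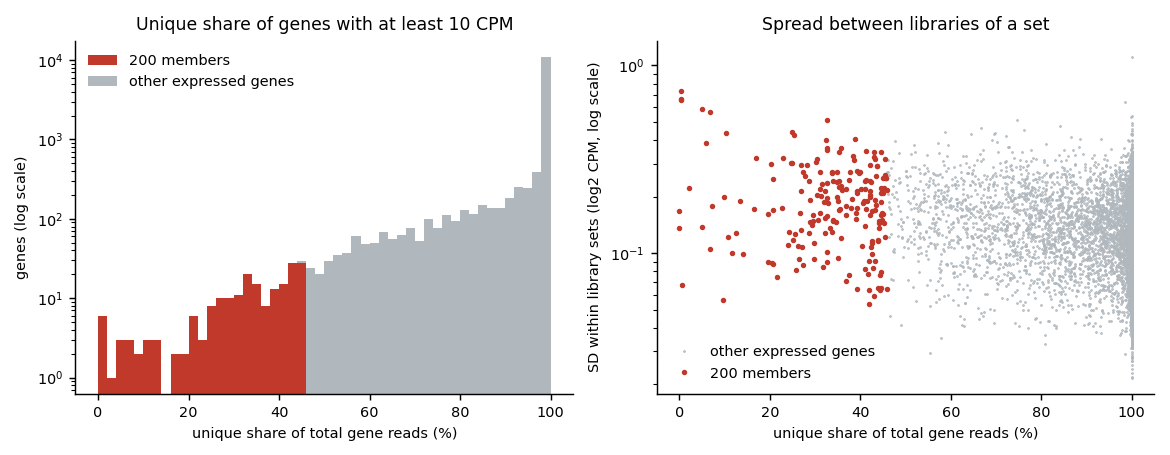
Left, number of genes with at least 10 CPM (log scale) by unique share in percent; right, SD of log2 CPM between libraries of a set (log scale) against unique share, 1 point per gene. The members, in red, end at 45.9% unique reads without a gap to the other genes, and the highest SD among them, 0.733, belongs to a gene with 0.311% unique reads.

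The members stood out in position. Letter L, the unplaced scaffolds, held 30 members, which is 15% of the members against 2.75% of all expressed genes. The chromosome letters with most members were B with 27, C with 26 and H with 25, and letter I had 3. The gene listed just before or just after had under 90% unique reads for 163 of the 200 members (81.5%), against 22.7% of the other expressed genes. Only 36 members were neighbours of another member, in 18 pairs of IDs adjacent in the list, and no run was longer than 2. The members were somewhat shorter, with a median length of 1453.5 bases against 1751.5, and lower, with a median of 24.5 CPM against 35.7, than the other expressed genes. Per kilobase of length their median level was 19.7 CPM, against 20.8. For 22 members (11%), against 4.26% of the expressed genes, the mean over the libraries outside their highest group was under 10 CPM, so they reached the limit only through that group. Of the members described below these are Eucgr.H03199.1 and Eucgr.H04194.1 (through SI-12 roots at 400 ppm), Eucgr.G00130.1 and Eucgr.F04184.1 (SI-12 at 650 ppm), Eucgr.C02472.1 and Eucgr.C02556.1 (control at 650 ppm), Eucgr.L02592.1 (control at 400 ppm) and Eucgr.L03716.1 (SI-9 at 650 ppm). Their differences from that group are given as values without a test, since a gene chosen through it had to be high there, and all counts of called members include the 22.

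Eucgr.G01645.1 and Eucgr.L01789.1 were the extreme case, with no unique read in any library. Both are listed with 480 bases, 1 on a chromosome and 1 on an unplaced scaffold. At 400 ppm, control roots had 8.69 to 10.3 CPM of Eucgr.G01645.1 (median 9.65) and 8.64 to 11.3 CPM of Eucgr.L01789.1 (median 10.2). In SI-12 roots at 650 ppm the 3 libraries held 25.5, 24.1 and 20.7 CPM of the first and 23.7, 25.6 and 22.6 CPM of the second. Eucgr.G01645.1 took 44.2% to 54.7% of the reads of the pair, and the exact 95% binomial interval, which covers counting error only, held 50% in 22 of the 23 libraries. Both genes were called in all 7 comparisons with nearly the same fold, for example a log2 fold change of 0.55 ± 0.12 (SE) and 0.54 ± 0.12 for CO2 in control roots (adjusted p = 0.000844 and 0.000862). With no read of its own, neither gene's level was measured apart from the other's, and the 2 sets of calls are not independent.

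Eucgr.H04445.1 and Eucgr.H04447.1, separated by 1 other ID, had 0.428% and 0.311% unique reads, at most 17 and 11 reads per library. Their sum ran from 34.4 to 275 CPM, and the part of the first ran from 7.13% to 86.3% of it. Inside a single set of control roots at 650 ppm, libraries 3, 4 and 5 held 44.3, 74.3 and 14.3 CPM of Eucgr.H04445.1 and 141, 127 and 186 CPM of Eucgr.H04447.1. In these libraries the first gene had 1, 2 and 0 unique reads and the second 5, 4 and 11. These genes also had 2 of the 3 highest spreads inside sets, with an SD of 0.733 log2 units for Eucgr.H04447.1 and 0.651 for Eucgr.H04445.1, and 0.664 for Eucgr.B02376.1. The median over all members was 0.185, against 0.117 over the other expressed genes, and 0.223 over the 9 members under 5% unique. How shared reads were divided among genes is not given in the sources used here.

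Eucgr.B02376.1 and Eucgr.B02377.1, adjacent and with 0.455% and 0.68% unique reads, held the widest difference among the abundant members. Eucgr.B02376.1 had 9.97 to 50.6 CPM in control roots at 400 ppm (median 20.6) and 1140, 859, 789, 839 and 776 CPM in those at 650 ppm. All libraries at 650 ppm lay above all at 400 ppm, a log2 fold change of 5.09 ± 0.37 (adjusted p = 8.14e-10). Unique reads moved with it, from 0 to 5 per library to 26 to 129, or a log2 fold change of 5.45 ± 0.59 by unique reads alone (adjusted p = 5.28e-07). In the mycorrhizal groups it stayed between 2.94 and 72.1 CPM, with at most 3 unique reads per library. Eucgr.B02377.1 had 844 to 1236 CPM in control roots at 400 ppm and 769 to 1309 CPM at 650 ppm, and did not pass the test there (log2 fold change -0.08 ± 0.13, adjusted p = 0.625). In SI-12 roots it rose from 335, 329 and 330 CPM at 400 ppm to 3625, 3587 and 3518 CPM at 650 ppm, a log2 fold change of 3.43 ± 0.19 (adjusted p = 6.21e-11). Its unique reads went from 83, 83 and 146 to 255, 157 and 175 over the same libraries, which is 8.25, 8.67 and 9.95 CPM against 13.4, 12.5 and 15.1 CPM of unique reads. Total reads thus rose more than unique reads, and the unique share of Eucgr.B02377.1 fell from 2.63% to 0.365%.

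Eucgr.L00891.1 and Eucgr.H00892.1 were among the most abundant members and lie on different letters. Eucgr.L00891.1 ranged from 525 to 1394 CPM and Eucgr.H00892.1 from 509 to 884 CPM, while their sum varied 1.94-fold over the 23 libraries. With 11.7% and 24% unique reads, Eucgr.L00891.1 had 702 to 3291 unique reads per library and Eucgr.H00892.1 652 to 4550. Eucgr.L00891.1 rose in SI-9 roots at 400 ppm, from a median of 745 CPM in control roots to 1394, 1063 and 1308 CPM (log2 fold change 0.75 ± 0.18, adjusted p = 0.00528), where Eucgr.H00892.1 at 616, 767 and 633 CPM did not pass the test (adjusted p = 0.426).

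How a gene's shared reads follow its unique reads was examined with 3 formulas, chosen after the values were seen, that give the first gene's part of a pair's shared reads in proportion to its unique reads plus 1, to that number per base of length, or to unique reads per base. Over the 18 adjacent pairs, unique reads plus 1 per base came nearest in 9 pairs, unique reads per base in 6 and unique reads plus 1 in 3. The mean deviation under unique reads plus 1 per base was 0.139 percentage points for Eucgr.B02376.1 and Eucgr.B02377.1, had a median of 2.64 points and was above 5 points in 5 pairs. It was 27.6 points for Eucgr.I02033.1 and Eucgr.I02034.1 and 18.1 points for Eucgr.K03028.1 and Eucgr.K03029.1. Whether the 2 genes of an adjacent pair share their reads with each other was not established. Large deviations therefore do not decide whether the formula holds. All 200 members were also matched by that formula against 3577 genes with at least 20 shared reads per library on average. For 178 members the next-best gene was less than 2 times as far as the best, and 7 pairs were mutually nearest with the next gene at least 2 times as far, limits that were also set after the values were seen. They are Eucgr.G01645.1 with Eucgr.L01789.1, Eucgr.H04445.1 with Eucgr.H04447.1, Eucgr.B02376.1 with Eucgr.B02377.1, Eucgr.H00892.1 with Eucgr.L00891.1, Eucgr.E02813.1 with Eucgr.E02814.1, Eucgr.G00965.1 with Eucgr.G00968.1 and Eucgr.F01659.1 with Eucgr.F02662.1. Since the match chose these pairs, their small deviations are no support for the formula.

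In the 18 pairs of adjacent members, the ratio of the 2 levels varied more than in other adjacent pairs. The log2 ratio of the 2 levels spanned a median of 3.16 over the 23 libraries, from 1.3 to 14.9, against a median of 1.59 in 7155 other adjacent pairs of expressed genes. The widest span is that of Eucgr.L03716.1, which reached the CPM limit through 1 library; without its pair the median was 2.96 and the widest span 14.7. In 10 pairs the higher member changed from library to library. Over 7 comparisons of 18 pairs, both members were called in the same direction 13 times (10.3%), in opposite directions 6 times (4.76%), 1 alone 51 times (40.5%) and neither 56 times (44.4%). In the other adjacent pairs these shares were 9.19%, 6.52%, 44.1% and 40.2%, so the members' shares are near the background. The 6 opposite cases fell in 4 pairs, among them Eucgr.B02376.1 with a log2 fold change of -4.74 ± 0.49 in SI-9 roots at 650 ppm, where Eucgr.B02377.1 had 0.57 ± 0.15 (adjusted p = 2.40e-07 and 0.00577). In SI-12 roots at 400 ppm Eucgr.L02342.1 rose by 3.27 ± 0.53 log2 units while Eucgr.L02340.1 changed by -0.79 ± 0.13 (adjusted p = 9.01e-05 and 0.000114), and the sum of their reads had a log2 fold change of 0.01 ± 0.15 (adjusted p = 0.964). This pair is not typical. The summed total reads were called in 10 of the 18 pairs in that comparison (background of single genes 32.3%, and 34.5% of those with at least 10 CPM). Per comparison they were called in 5 to 12 pairs (background 23.1% to 42.5%, and 26.9% to 47.5% of genes with at least 10 CPM). Sums of other adjacent pairs were not tested, so a like background is missing.

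Eucgr.K03028.1 was absent or nearly so from 1 group. Control roots at 650 ppm held 0, 0, 0.0333, 0.0832 and 0 CPM of it, 3 reads in all, whereas control roots at 400 ppm held 32.3 to 56.5 CPM (median 40.9). SI-9 roots had 25.8, 29.8 and 25.3 CPM at 400 ppm and 41, 41 and 42 CPM at 650 ppm. SI-12 roots had 47.4, 48.3 and 47.8 CPM at 400 ppm and 18.8, 18.6 and 15.3 CPM at 650 ppm. Pooled over libraries, control roots at 400 ppm held 1558 times the level of those at 650 ppm, with an exact 95% interval for counting error of 533 to 7559, and the difference was called (adjusted p = 3.93e-16). Of the 3 reads, 2 came from control library 4, without which the fitted log2 fold change went from -10.2 to -11.1. Its neighbour Eucgr.K03029.1 had 32.7, 39.1, 32, 33.6 and 35.8 CPM in control roots at 650 ppm. At 400 ppm it split by set, with 6.93, 7.56 and 10.9 CPM in control libraries 1 to 3 and 34.3, 32.3 and 31.8 CPM in libraries 4 to 6.

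Other adjacent pairs held single libraries or sets at almost no reads. Eucgr.L01180.1 had 19.2, 17.9 and 15.9 CPM in control libraries 1 to 3 at 400 ppm and 0.128, 0.427 and 0.0742 CPM in libraries 4 to 6, and 0.0406 CPM in SI-9 library 3 at 650 ppm against 15.8 and 14.6 CPM in libraries 1 and 2. Its neighbour Eucgr.L01181.1 stayed between 12.8 and 37.4 CPM throughout. Eucgr.E02813.1 varied 1.85-fold over all libraries, whereas the adjacent Eucgr.E02814.1 varied 6.97-fold, also inside sets, with 11.3, 4.8 and 19.8 CPM in control libraries 1 to 3 at 400 ppm. The pair Eucgr.K02084.1 and Eucgr.K02085.1 varied 2.06-fold and 2.23-fold. Eucgr.L03716.1 reached the 10 CPM limit through 1 library, with 232 CPM in SI-9 library 3 at 650 ppm and 0 to 0.285 CPM in the other 22, where its neighbour Eucgr.L03718.1 had 17.4 CPM in that library against 51.8 and 53.4 CPM in SI-9 libraries 1 and 2.

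**Figure D2:**
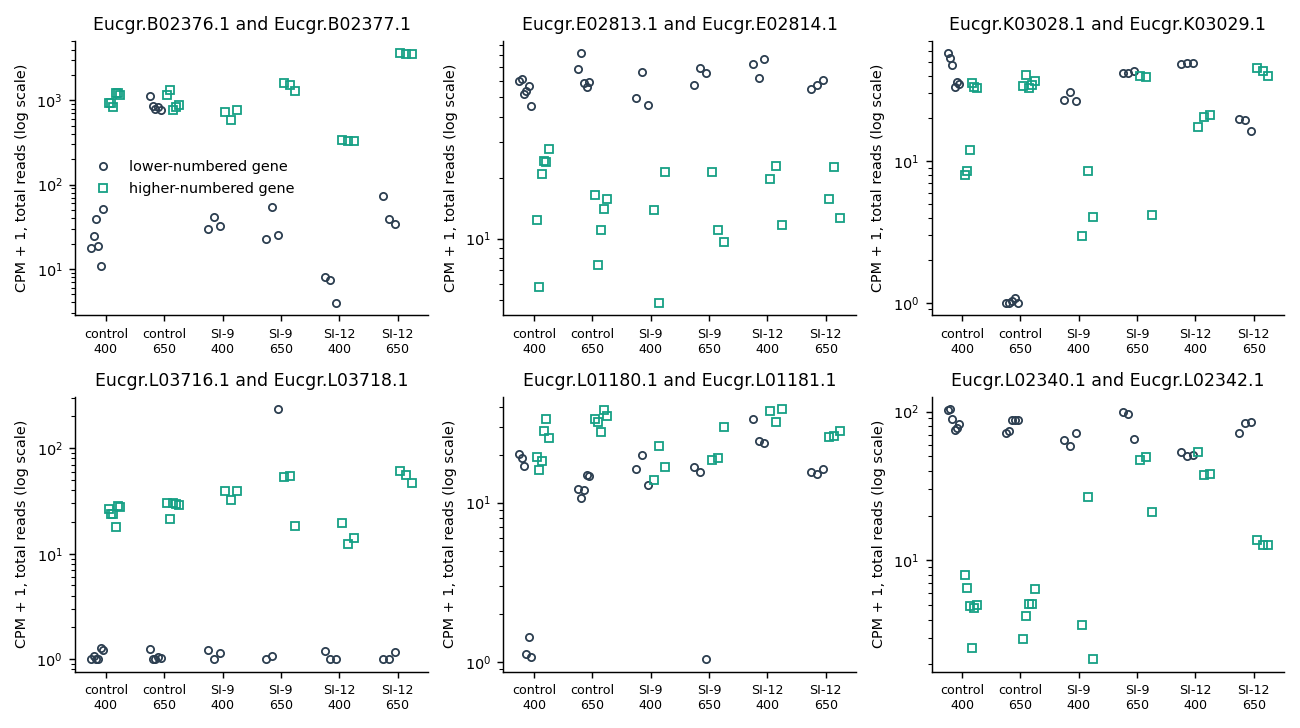
Total reads as CPM + 1 (log scale) of both genes of 6 adjacent pairs, by group, with 1 point per library and 4 of the pairs (all but Eucgr.B02376.1 with Eucgr.B02377.1 and Eucgr.E02813.1 with Eucgr.E02814.1) chosen after their values were seen. Eucgr.K03028.1 drops to almost no reads in control roots at 650 ppm, where Eucgr.K03029.1 stays at 32 to 39.1 CPM.

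The members differed more among groups than other expressed genes. The highest group mean was at least 2 times the lowest in 129 members (64.5%), against 32.3% of the expressed genes, and at least 8 times in 30 members (15%), against 4.20%. The median ratio was 2.53 in the members and 1.61 in the expressed genes. Among genes that kept 10 CPM without their highest group, 60.1% of 178 members and 29.9% of 13367 expressed genes reached 2 times, and 9.55% and 2.92% reached 8 times. Counting unique reads alone, 133 of all members reached 2 times and 30 reached 8 times. Both counts include 7 members without a unique read in at least 1 group, which were scored as reaching each multiple. Among the 7 are Eucgr.G01645.1 and Eucgr.L01789.1, which had no unique read in any library and so no ratio. The other expressed genes were not counted by unique reads. The members' larger spread inside sets, given above, moves with the difference among groups, and its part in it was not tested.

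**Figure D3:**
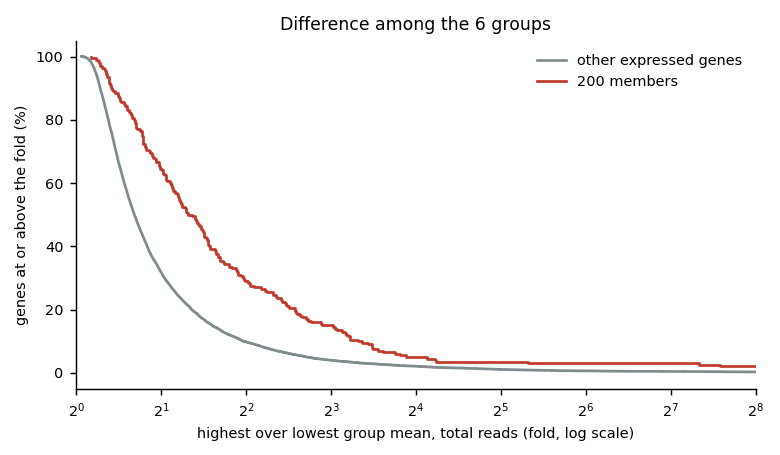
Percent of genes whose highest group mean is at or above a given multiple of the lowest (log scale), from total reads. The 200 members, in red, lie above the other expressed genes; at a multiple of 2 they reach 64.5%.

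Over the 7 comparisons the median size of the log2 fold change was 0.31 to 0.63 in the members and 0.21 to 0.30 in the expressed genes, while the signed median was -0.10 to 0.16 in the members and -0.04 to 0.03 over all genes tested. SI-12 roots at 400 ppm held the highest group mean for 56 members (28%, against 18.3% of the expressed genes), and SI-9 roots at 400 ppm for 21 (10.5%, against 17%). No comparison called 29 members (14.5%, against 13.9%), and all 7 called 4 (2%, against 1.34%), namely Eucgr.G01645.1, Eucgr.L01789.1, Eucgr.L02803.1 and Eucgr.F01659.1. Comparisons that share a control group are not independent. Among the most abundant members, Eucgr.B02914.1 split by set, with 1277, 1330 and 1211 CPM in control libraries 1 to 3 and 630, 620 and 605 CPM in libraries 4 to 6 at 400 ppm, and Eucgr.L00023.1 stayed between 191 and 373 CPM in all libraries.

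Elevated CO2 in control roots changed 89 of the 199 members tested, 41 higher (20% of all genes tested) and 48 lower (22.5%), a share close to the 42.5% of all genes tested and the 47.5% of genes with at least 10 CPM that were called. By unique reads 74 of 195 members were called (background 42.8%). Eucgr.G00130.1 had 0.033 to 0.594 CPM at 400 ppm (median 0.175) and 29, 13.9, 18.4, 16.7 and 21.1 CPM at 650 ppm, a log2 fold change of 6.40 ± 0.35 (adjusted p = 1.20e-11). Eucgr.L00694.1 fell from 17.4 to 36.8 CPM (median 30.4) to 0.675, 1.52, 0.6, 0.957 and 0.177 CPM, a log2 fold change of -5.37 ± 0.35 (adjusted p = 1.65e-10). Eucgr.C02263.1 fell from 249 ± 16.9 CPM (SD, n = 6) to 45.1 ± 5.26 CPM (n = 5), with a log2 fold change of -2.47 ± 0.34 in edgeR (adjusted p = 6.32e-06). Eucgr.D01484.1 rose from 9.29 ± 8.81 CPM (n = 6) to 69.5 ± 6.38 CPM (n = 5), with a log2 fold change of 2.94 ± 0.66 in edgeR (adjusted p = 0.00124), but at 400 ppm control libraries 1 to 3 held 1.22 to 1.35 CPM and libraries 4 to 6 held 16 to 18 CPM. Among controls numbered 1 to 12 the log2 fold change of Eucgr.D01484.1 was 5.89, and among those numbered 13 to 24 it was 1.92. Taking the 10 sets as replicates, 8 members were called (background 1.45%), and 29 with DESeq2 on the sets (background 11%). Eucgr.G00130.1, Eucgr.B02376.1, Eucgr.K03028.1 and Eucgr.L00694.1 passed that edgeR test on sets, Eucgr.C02263.1 and Eucgr.D01484.1 did not.

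SI-9 roots at 400 ppm differed from control roots in 48 of 199 members, 21 higher (11.3% of all genes tested) and 27 lower (11.8%); either direction, background 23.1%, and 26.9% of genes with at least 10 CPM, and in 37 by unique reads (background 23.2%). Eucgr.G00130.1 rose from the control level to 36, 19.1 and 26.1 CPM (log2 fold change 6.83 ± 0.37, adjusted p = 1.72e-10). Eucgr.H03199.1 held 5.3, 29.4 and 2.04 CPM against 0.561 to 1.28 CPM in control roots (median 1.10), and its log2 fold change of 3.60 ± 0.57 fell to 1.72 without SI-9 library 2 (adjusted p = 0.000118 and 0.0259). SI-9 library 2 is the one that lay near the SI-12 libraries at 400 ppm, which held 59.3 ± 4.99 CPM of this gene (SD, n = 3). Eucgr.E03453.1 fell from 33.8 ± 5.75 to 6.28 ± 2.54 CPM, and Eucgr.J01813.1 from 21.7 ± 2.74 to 4.95 ± 2.19 CPM (SD, n = 6 and 3; adjusted p = 1.08e-07 and 1.47e-05 in edgeR). Eucgr.J03198.1 fell from 184 ± 25.6 to 68.6 ± 10.1 CPM and Eucgr.D02039.1 rose from 16.5 ± 4.31 to 85.8 ± 21.5 CPM (SD, n = 6 and 3; adjusted p = 4.11e-08 and 0.00449 in edgeR). Left-out libraries moved the count of members to 30 without SI-9 library 3, a setting for which no share of all genes is given. On the 10 sets, edgeR called 0 members (background 0%; 30 members, 15%, had an unadjusted p under 0.05, against 11.7% of all genes) and DESeq2 called 12 (background 4.05%).

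SI-12 roots at 400 ppm differed from control roots in 87 members, 38 higher (14.5% of all genes tested) and 49 lower (17.8%); either direction, background 32.3%, and 34.5% of genes with at least 10 CPM, and in 76 by unique reads (background 32.3%). Eucgr.H03199.1 had 65.1, 56.4 and 56.4 CPM and Eucgr.H04194.1 had 51.8, 38.1 and 39 CPM, against 0.561 to 1.28 CPM and 0.945 to 7.42 CPM (median 1.94) in control roots, and these are the libraries through which both became members. Eucgr.L02342.1 rose from 4.31 ± 1.82 to 42.1 ± 8.89 CPM (SD, n = 6 and 3, adjusted p = 9.01e-05 in edgeR). Eucgr.D02039.1 fell to 0.285, 0.3 and 0.327 CPM, 11 reads in all, from 11.1 to 22 CPM in control roots (-5.71 ± 1.11, adjusted p = 0.000514). Eucgr.B02914.1, one of the most abundant members, fell to 83.3, 80.4 and 85.7 CPM from 605 to 1330 CPM (median 921), with a log2 fold change of -3.51 ± 0.32 (adjusted p = 6.30e-08). Against control libraries numbered 13 to 24 alone, that change was -2.90. Eucgr.L02592.1 had 23.2 ± 16.1 CPM in control roots, through which it became a member, and 2.25 ± 1.23 CPM in SI-12 roots (SD, n = 6 and 3). The test on the 10 sets called 0 members in edgeR (background 0%; 47 members, 23.5%, had an unadjusted p under 0.05, against 11.9% of all genes) and DESeq2 27 (background 5.41%).

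SI-9 roots at 650 ppm differed from control roots at 650 ppm in 88 members, 48 higher (19.3% of all genes tested) and 40 lower (17.2%); either direction, background 36.5%, and 42.6% of genes with at least 10 CPM, and in 74 by unique reads (background 37%). Eucgr.K03028.1, nearly absent from these controls, was present in every SI-9 library, at 1425 times the control level with a counting interval of 487 to 6914 (adjusted p = 4.92e-15). Eucgr.L00694.1 stood at 24.5, 21.4 and 29.2 CPM, against at most 1.52 CPM in the controls (5.15 ± 0.37, adjusted p = 1.35e-09). Eucgr.G00130.1 fell to 0.0547, 0.0798 and 0.122 CPM, 6 reads in all (-7.71 ± 0.53, adjusted p = 8.71e-10). Eucgr.G02174.1 fell from 36.6 ± 6.15 to 2.11 ± 1.69 CPM (SD, n = 5 and 3, adjusted p = 4.74e-07 in edgeR), and Eucgr.H03199.1 rose from 0.311 ± 0.207 to 3.64 ± 3.44 CPM (SD, n = 5 and 3, adjusted p = 0.000612 in edgeR), a log2 fold change of 3.35 that was 2.20 without SI-9 library 3. With the 10 sets, 11 members were called by edgeR (background 1.93%) and 42 by DESeq2 (background 13%). Among them in edgeR were Eucgr.K03028.1, Eucgr.L00694.1, Eucgr.G00130.1 and Eucgr.B02376.1.

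SI-12 roots at 650 ppm differed from control roots at 650 ppm in 85 members, 39 higher (19.9% of all genes tested) and 46 lower (19.7%); either direction, background 39.6%, and 45.7% of genes with at least 10 CPM, and in 66 by unique reads (background 39.9%). Eucgr.K03028.1 stood at 614 times the control level, with a counting interval of 209 to 2981 (adjusted p = 3.27e-14). Eucgr.L00694.1 at 20.8, 23 and 23.7 CPM was again above all controls (5.00 ± 0.37, adjusted p = 1.98e-09), and Eucgr.H03199.1 rose from 0.311 ± 0.207 to 4.51 ± 0.5 CPM (SD, n = 5 and 3, adjusted p = 0.000244 in edgeR). Eucgr.B02376.1 fell from 776 to 1140 CPM to 72.1, 38.4 and 33.5 CPM (-4.19 ± 0.47, adjusted p = 7.06e-07). Eucgr.C02497.1 fell from 39.5 to 47.7 CPM to 6.42, 3.69 and 5.23 CPM (-3.09 ± 0.14, adjusted p = 7.27e-13). Eucgr.C02472.1 had 42.7 ± 7.13 CPM in control roots, through which it became a member, and 2.43 ± 1.73 CPM in SI-12 roots (SD, n = 5 and 3). With the 10 sets, edgeR called 7 members (background 0.496%) and DESeq2 26 (background 8.87%), and of the genes named here Eucgr.K03028.1, Eucgr.L00694.1, Eucgr.B02376.1 and Eucgr.C02497.1 passed in edgeR.

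Elevated CO2 changed 75 members in SI-9 roots, 41 higher (12% of all genes tested) and 34 lower (12%); either direction, background 23.9%, and 31.2% of genes with at least 10 CPM, and 60 by unique reads (background 24.1%). Eucgr.G00130.1 fell from 36, 19.1 and 26.1 CPM to at most 0.122 CPM (-8.14 ± 0.55, adjusted p = 5.13e-09), the opposite of its change in control roots. Eucgr.J01813.1 rose from 4.95 ± 2.19 to 27.6 ± 5.45 CPM and Eucgr.H00487.1 from 31.9 ± 9.12 to 135 ± 64.7 CPM (SD, n = 3 each; adjusted p = 7.24e-06 and 0.00395 in edgeR). Eucgr.G02174.1 fell from 17.4 ± 3.24 to 2.11 ± 1.69 CPM (SD, n = 3 each, adjusted p = 7.30e-05 in edgeR, 0.0535 when only these 2 groups were fitted). For Eucgr.F04184.1 SI-9 library 2 at 400 ppm decided the size: the libraries held 0.441, 6.6 and 0.218 CPM at 400 ppm and 17.1, 20.4 and 9.87 CPM at 650 ppm, and the log2 fold change of 2.61 ± 0.70 was 5.79 without library 2 and 1.98 without library 3 (adjusted p = 0.00985 with all libraries, 0.14 when only these groups were fitted). Eucgr.E01620.1 fell from 80.2 ± 16.5 to 8.89 ± 10.2 CPM (SD, n = 3 each, adjusted p = 0.0106 in edgeR), and the call was lost without SI-9 library 1 or 2 at 650 ppm (adjusted p = 0.0527 and 0.0556). Its log2 fold change of -3.16 was -4.73 without SI-9 library 3 at 650 ppm. The count of members was 47 without SI-9 library 2 at 650 ppm, a setting for which no share of all genes is given. For the 10 sets edgeR called 0 members (background 0%; 49 members, 24.5%, had an unadjusted p under 0.05, against 15.6% of all genes) and DESeq2 33 (background 7.35%).

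Elevated CO2 changed 92 members in SI-12 roots, 51 higher (17.6% of all genes tested) and 41 lower (16.5%); either direction, background 34.1%, and 39% of genes with at least 10 CPM, and 77 by unique reads (background 34.2%). Eucgr.D02039.1 rose from 0.285, 0.3 and 0.327 CPM to 89.7, 89.6 and 92.5 CPM (8.17 ± 1.13, adjusted p = 1.39e-05), with no unique read at 400 ppm and 511, 346 and 400 at 650 ppm. Eucgr.G00130.1 had 0.476, 0.3 and 0.522 CPM at 400 ppm and 45.9, 58.6 and 56.9 CPM at 650 ppm, the libraries through which it became a member. Eucgr.J01813.1 rose from 3.67 ± 1.85 to 41.5 ± 1.76 CPM, with an adjusted p of 4.53e-08 in edgeR, while Eucgr.H03199.1 had 59.3 ± 4.99 and 4.51 ± 0.5 CPM (SD, n = 3 each). Eucgr.C02497.1 fell from 41.7 ± 3.13 to 5.11 ± 1.37 CPM and Eucgr.B00947.1 from 29.5 ± 3.56 to 3.38 ± 1.42 CPM (SD, n = 3 each; adjusted p = 1.49e-11 and 3.07e-05 in edgeR). Each SI-12 group is a single set. Once the 10 sets were the replicates, edgeR called 0 members (background 0%; 45 members, 22.5%, had an unadjusted p under 0.05, against 12.3% of all genes) and DESeq2 23 (background 5.31%).

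The CO2 effect itself differed between SI-12 and SI-9 roots in 72 members, 36.2% (background 27.5%, and 33.1% of genes with at least 10 CPM). It differed between SI-12 and control roots in 81 members, 40.7% (33.2% and 37.8%), and between SI-9 and control roots in 68, 34.2% (28.2% and 32.2%). These shares are close to those of the genes with at least 10 CPM. By unique reads, the 10 sets gave 5 calls for CO2 in control roots (background 1.57%), 9 for SI-9 at 650 ppm (2%) and 4 for SI-12 at 650 ppm (0.495%) in edgeR. The same test called 0 members for SI-9 and SI-12 at 400 ppm (0.0135% each) and for CO2 in SI-9 and in SI-12 roots (0% each). In these 4 comparisons an unadjusted p under 0.05 was found for 20, 39, 43 and 32 members, which is 10.1%, 19.7%, 21.7% and 16.2% of the members tested, against 11.6%, 11.9%, 15.7% and 12.4% of all genes. In DESeq2 the unique reads of the sets gave 23 calls for CO2 in control roots (11%), 11 for SI-9 at 400 ppm (3.94%), 19 for SI-12 at 400 ppm (5.31%), 29 for SI-9 at 650 ppm (12.3%), 19 for SI-12 at 650 ppm (8.7%), 17 for CO2 in SI-9 roots (7.39%) and 16 for CO2 in SI-12 roots (5.38%).

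**Figure D4:**
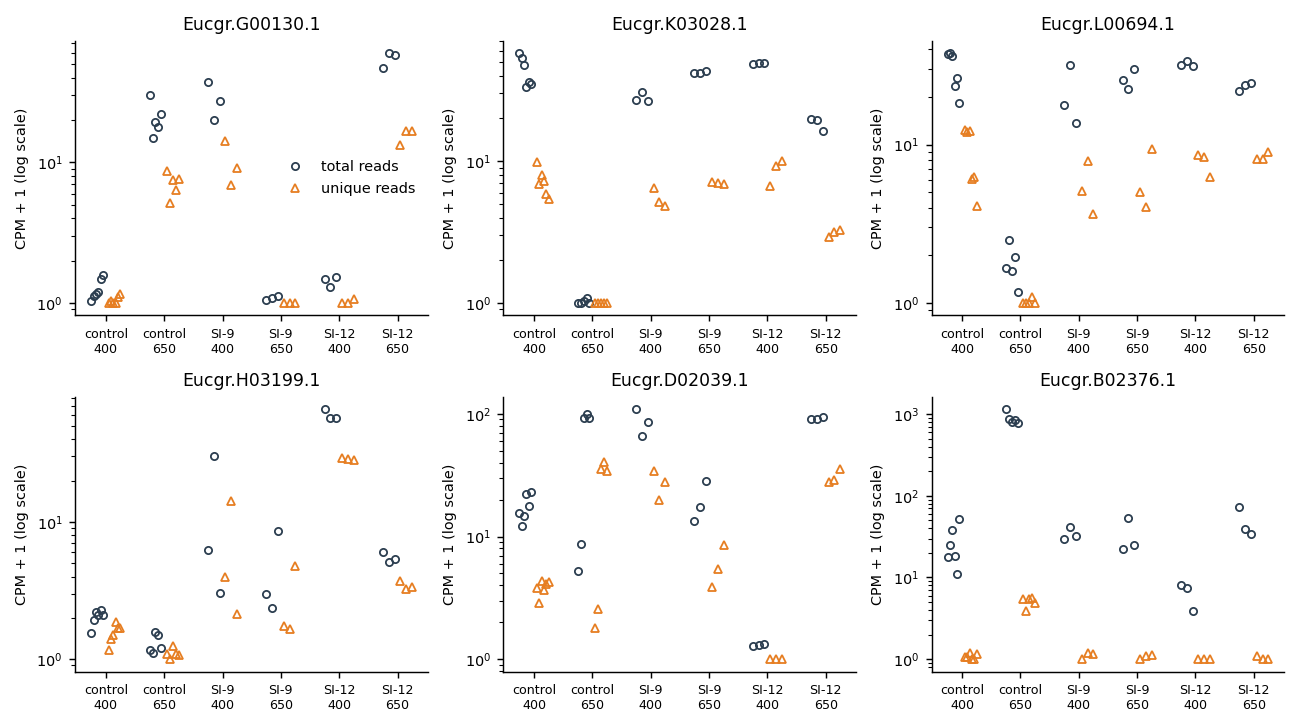
CPM + 1 (log scale) of 6 members in every library by group, from total reads (circles) and from unique reads (triangles). Eucgr.G00130.1 is under 1 CPM in control and SI-12 roots at 400 ppm and in SI-9 roots at 650 ppm, and at 13.9 CPM or above in the other 3 groups.

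Total and unique reads gave the same direction wherever both called a member. Of 195 members tested by both, 33 to 74 per comparison were called by both in the same direction, 13 to 22 by total reads only, 3 to 9 by unique reads only, and 0 in opposite directions, as in 0% of the expressed genes. Of 13957 expressed genes, 3670 to 6544 per comparison were called by both, 82 to 137 by total reads only and 52 to 104 by unique reads only. The 2 counts share the unique reads, so this is not independent. In the 18 adjacent pairs, the ratios of unique and of shared reads correlated over libraries with a median r of 0.955 (0.597 to 0.995). If unique reads guided the division of shared reads, the same direction would follow in part, which was not tested. The fold changes differed by a median of 0.102 to 0.138 log2 units per comparison in the members and 0.000632 to 0.00538 in the expressed genes. Between 1 and 5 members per comparison differed by 2-fold or more. Eucgr.L03716.1 did not pass the filter on low counts by total reads, and it and 4 more members, Eucgr.L01789.1, Eucgr.H04445.1, Eucgr.H04447.1 and Eucgr.G01645.1, did not pass it by unique reads.

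**Figure D5:**
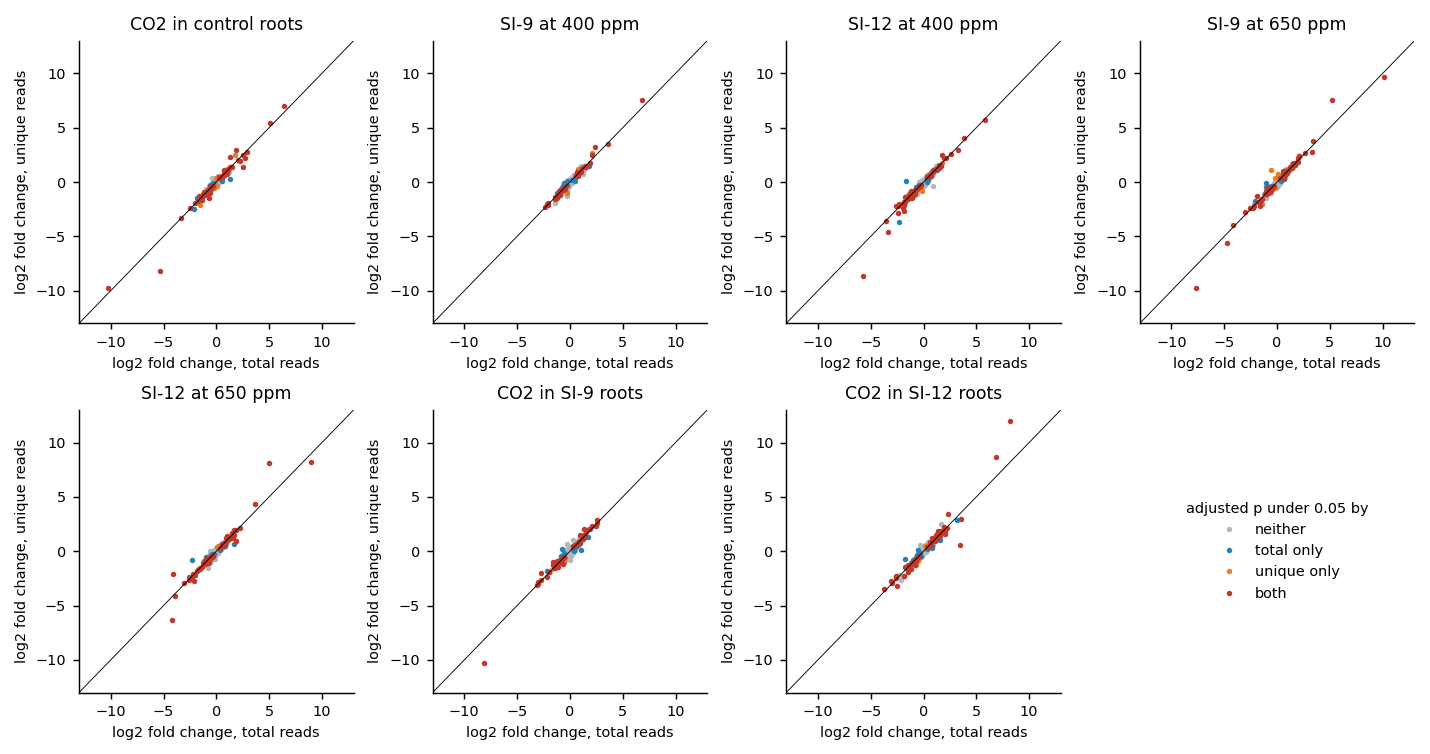
Log2 fold change by unique reads against that by total reads for members tested by both, in 7 comparisons, coloured by which count called them; the line marks equality. Points lie along the line, and 0 members were called in opposite directions.

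The unique share itself moved between groups in part of the members. It differed among the 6 groups for 41 of 198 members tested (20.7%; background 13.8% of 2961 genes with enough unique and shared reads), by limma on the log2 ratio of unique to shared reads. With the 10 sets as replicates 3 members were called (background 0.504%). Over all 200 members, the median span of the share over the groups was 6.69 percentage points and the highest 100, and 14 members spanned 20 points or more. Groups with few reads were included in these spans, and other genes were not counted in this way. Eucgr.D02039.1 had 17.4% unique reads in control roots at 400 ppm, 36.2% at 650 ppm and 0% of 11 reads in SI-12 roots at 400 ppm (adjusted p = 3.82e-09). Eucgr.G01478.1 had 58.8% in SI-12 roots at 400 ppm and 36.8% at 650 ppm (adjusted p = 1.07e-06). Eucgr.L01583.1 ran from 15.1% in control roots at 650 ppm to 48.5% in SI-9 roots at 650 ppm (adjusted p = 1.23e-06), and at 400 ppm it split by set, with 19.6% to 20.8% in control libraries 1 to 3 and 34.5% to 40.9% in libraries 4 to 6. The share of Eucgr.B02377.1 ran from 0.365% to 2.63%, as given above (adjusted p = 3.57e-07). Eucgr.C02556.1 had 11.2% in control roots at 650 ppm, through which it became a member, and 34.8% in SI-12 roots at 650 ppm. Its values are given without a test.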

How the data were processed

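Root RNA was sequenced as read pairs, per the labels. The deposited counts are unique and total gene reads per gene, made by the authors, per the file headers. The RPKM values the authors deposited match, within 1%, total gene reads over length and library size for all 36376 genes, and were not used further. No source used here gives the aligner, the genome build, the strand setting or how shared reads were divided. Sequences of the members are not printed, since 0 of the 36376 IDs matched the table of 42619 reference genes.

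Total and unique reads were each tested with edgeR 4.0.16 (quasi-likelihood, TMM, filterByExpr by group, Benjamini-Hochberg at 0.05, 2-sided), with all 23 libraries in 1 fit; limma 3.58.1 tested the unique share, DESeq2 1.42.0 was an alternative (R 4.3.3), and figures used matplotlib 3.10.9. Printed CPM are scaled by TMM factors, whereas the 10 CPM limit that chose members used raw library totals. Each SE is the fold change over the root of its F statistic. In a library 3 reads correspond to 0.0993 to 0.667 CPM, so lower levels rest on fewer than 3 reads; intervals cover counting error only.

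Members and lists were chosen with earlier results of these data known. Named genes are the 5 members of lowest share, the 5 of highest level, the 3 longest runs of neighbouring IDs (pairs, by lowest share), per comparison the 3 largest rises and 3 largest falls without overlap between groups and with at least 1 CPM in the higher one, and the 5 of smallest p for the share. The pairs Eucgr.G01645.1 with Eucgr.L01789.1, Eucgr.H04445.1 with Eucgr.H04447.1 and Eucgr.L00891.1 with Eucgr.H00892.1, and Eucgr.K03029.1, Eucgr.L01180.1, Eucgr.L01181.1, Eucgr.L02340.1, Eucgr.L03716.1 and Eucgr.L03718.1, were singled out after their values were seen.

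The share statistic departs from the planned one. The planned form (offset of 0.5 reads, every gene with at least 10 CPM) made 2079 false calls among 13762 unchanged genes in simulated data, and 2 further forms were tried. The form kept was settled with the real counts of the last 2 forms in view; it scales the offset by the gene's reads, weights by binomial variance and keeps genes with at least 10 shared and 2 unique reads per library on average and with reads in every group. In simulated data it recovered 170 of 189 changed genes with 11 false calls among 2775, and the second form recovered 117 of 200 with 78 among 13762. These shares were simulated with independent spread between libraries and without near-identical sets, so the rate of false calls need not hold in the real data. For CO2 in control roots the simulated edgeR test on 27386 genes recovered 68 of 106 genes changed 2-fold and 85 of 94 changed 4-fold, with 11 false calls; libraries were drawn there without near-identical sets. Alternatives were other scaling, no filter, DESeq2, only the groups compared, blocks for replicate or library number, controls of 1 number range, sets as replicates and each library left out. Leaving out genes that reach 10 CPM only through their highest group, and the pair of Eucgr.L03716.1, was chosen after seeing the data.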

Additional observations from a re-analysis of the deposited data

Results flagged for a closer look

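Among the named members, 74 groups of at least 4 libraries were examined for a library far from the others. These were control roots only, with 6 libraries at 400 ppm and 5 at 650 ppm, and the mycorrhizal groups of 3 were not examined. About 1 in 20 groups would be marked by chance, and 1 was: control library 1 at 650 ppm held 1140 CPM of Eucgr.B02376.1, against 776 to 859 CPM in the other 4 libraries of that group.

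The CO2 effect itself was compared between fungal states in the same edgeR fit. The effects of 2 states were called in opposite directions, with a difference that passed the test, in 42 of 199 members (21.1%), against 13.3% of genes with at least 10 CPM and 10.9% of all genes tested. Among them are 11 of the members named here, most of which were named for large changes, so their number is no measure of how frequent such cases are. The 42 were counted over all members tested, also those that reached 10 CPM only through their highest group. Such genes are 11% of the members and 4.26% of the expressed genes, and had to be high in that group. The count was not repeated without them. Each value below is the difference of the log2 fold changes, the first state minus the second. Between SI-12 and SI-9 roots it was 10.4 ± 1.35 (SE) for Eucgr.D02039.1 (8.17 against -2.18, adjusted p = 1.15e-05) and 3.23 ± 0.44 for Eucgr.B02914.1 (1.58 against -1.64, adjusted p = 1.75e-05). For Eucgr.G00130.1 the difference was 15 (6.90 against -8.14), given without a test since it became a member through SI-12 roots at 650 ppm. Between the same states it was 2.77 ± 0.40 for Eucgr.L01583.1 (adjusted p = 3.04e-05) and -3.73 ± 0.92 for Eucgr.L02342.1 (adjusted p = 0.00474). Between SI-12 and control roots it was 3.85 ± 0.55 for Eucgr.C02263.1 (adjusted p = 2.36e-05) and 0.998 ± 0.20 for Eucgr.L00023.1 (adjusted p = 0.000753). For Eucgr.C02472.1 the difference was -4.31, given without a test since it became a member through control roots at 650 ppm. Between SI-9 and control roots it was 10.8 ± 0.39 for Eucgr.K03028.1, which rests on 3 reads in control roots at 650 ppm (adjusted p = 1.69e-13), 2.98 ± 0.27 for Eucgr.E03453.1 (adjusted p = 9.66e-08) and 1.57 ± 0.16 for Eucgr.J03198.1 (adjusted p = 3.13e-07). Eucgr.D02039.1 split by set in control roots at 650 ppm, with 4.22 and 7.69 CPM in libraries 1 and 2 and 92.2, 99.5 and 91.4 CPM in libraries 3 to 5.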

How the results depend on the processing

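Fewer members were called in every comparison with the 10 sets as replicates, and why was not tested. In the order CO2 in control roots, SI-9 at 400 ppm, SI-12 at 400 ppm, SI-9 at 650 ppm, SI-12 at 650 ppm, CO2 in SI-9 roots and CO2 in SI-12 roots, edgeR on the 10 sets called 8, 0, 0, 11, 7, 0 and 0 members by total reads and 5, 0, 0, 9, 4, 0 and 0 by unique reads; where a group is 1 set, its spread is taken from the other groups. Without SI-9 library 2 at 400 ppm the sets gave 4, 0, 0, 7, 2, 0 and 0 by total and 1, 0, 0, 3, 0, 0 and 0 by unique reads. For the sets without that library no share of all genes called is given, so whether the drop is particular to the members is not shown. Where edgeR called 0 in either form of the sets, 10.1% to 24.5% of the members had an unadjusted p under 0.05, against 9.74% to 15.7% of all genes. DESeq2 on the sets called 29, 12, 27, 42, 26, 33 and 23 by total and 23, 11, 19, 29, 19, 17 and 16 by unique reads. Of 42 named results, 30 lost their call with edgeR on the sets, 6 with DESeq2 on them, and 0 were reversed. The unique share called 3 members on the sets, 24 with scaled offset and weights over every gene and 57 in the planned form, against 41. Over all genes tested these settings called 17 of 3374, 318 of 13962 and 3255 of 13962, against 408 of 2961.

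Fitting only the groups compared gave 101 members for SI-12 at 650 ppm by unique reads, and 43 by total and 29 by unique reads for CO2 in SI-9 roots. Controls of the same library numbers gave 61 for SI-9 at 400 ppm by unique reads. Leaving out 1 library gave 81 to 96 members by total and 66 to 85 by unique reads for CO2 in control roots, 30 to 55 and 21 to 46 for SI-9 at 400 ppm, 70 to 92 and 61 to 84 for SI-12 at 400 ppm, 73 to 97 and 62 to 78 for SI-9 at 650 ppm, 66 to 96 and 48 to 76 for SI-12 at 650 ppm, 47 to 83 and 35 to 65 for CO2 in SI-9 roots, 78 to 102 and 64 to 81 for CO2 in SI-12 roots, and 35 to 44 for the share. By unique reads SI-9 at 400 ppm had 22 members without SI-9 library 1 and 21 without library 3, and CO2 in SI-9 roots 35 without SI-9 library 3 at 400 ppm. For these settings no share of all genes called is given. Refitting can change the calls for all genes, so these counts alone do not show a change particular to the members. The causes were not tested.

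Replicate numbers did not pair libraries: of 47 same-numbered pairs, 4 had deviations correlated above 0.1 (-0.134 to 0.187). The replicate block gave 89 members for CO2 in control roots by total reads, 58 for SI-9 at 400 ppm and 42 for the share, and moved no count by over 1.5 times. No share of all genes called is given for the block.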
